A study of Mus musculus with 22 samples.

Results

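The 34 genes described here encode the chaperones, folding enzymes and degradation factors of the endoplasmic reticulum (ER), together with the sensors and transcription factors of the unfolded protein response. They were chosen by name and by known role, with earlier results of these data known, and are 34 of the 52636 genes in the deposited table. All 34 passed the filter on low values in every comparison.

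The data are RNA-seq libraries of organoids grown from the duodenum of adult mice and exposed to cold atmospheric plasma (CAP), an ionized helium gas. The study asked how CAP, given to the culture or through its medium, changes gene expression in normal intestinal epithelium. There were 22 libraries, 4 untreated and 3 in each of 6 treated groups. Each organoid line came from 1 wild-type mouse of the outbred CD1 strain, aged about 2 months, and no transgene or deletion was present in any group.

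The plasma jet was run at 50 W for 60 s in all treated groups. In direct CAP, the culture itself was exposed at day 1 and received fresh medium 30 min or 24 h later. Organoids under indirect CAP were given medium taken from another treated culture. In plasma-activated medium (PAM), they received medium that had been treated in the absence of organoids. Indirect CAP and PAM were started at day 1 or at day 2, and the cultures ended at day 3, although the time at which the 30 min group was collected is not certain. The treatment labels of indirect CAP and PAM give 30 min or 24 h and no start day. The 30 min label was taken here as the day 1 media and the 24 h label as the day 2 media. This match is an inference from the design in the paper, and all day 1 and day 2 results rest on it. As the methods describe 24 h for both, these groups are named by their start day. Lines 1, 2 and 4 gave 1 library in each treated group and lines 1 to 4 gave 1 untreated library each. The labels put lines 1 and 2 at passage 12 and 14 and lines 3 and 4 at passage 4.

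Proteins that enter the secretory pathway fold in the ER with the help of Hsp70 and Hsp90 chaperones, disulfide isomerases and the lectin chaperones that read N-glycans. When unfolded proteins build up, the sensors IRE1, ATF6 and PERK signal to the nucleus: IRE1 splices the Xbp1 mRNA, ATF6 is cut into a transcription factor, and PERK phosphorylates eIF2α, which slows translation and favours that of ATF4. XBP1 and ATF6 act on chaperone and ER-associated degradation genes, and goblet and Paneth cells, the secretory cells of the intestinal epithelium, depend on this machinery.

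The values are scaled counts, that is, reads per 20 M reads (M for mega) counted in the library, without division by gene length. By the spacing of low values, between 19.4 and 28.7 M reads were counted per library. The label stem cells describes the starting cells, and the libraries held markers of the whole epithelium. The summed value of 4 epithelial genes (Epcam, Cdh1, Vil1, Krt8) was 73576 to 125615 in every library. Markers of stroma, endothelium, immune cells and plasma cells added up to at most 14, 28, 74 and 29, with Lum and Dcn at 0 in most groups. Within the epithelium, the sum of 4 stem cell markers (Lgr5, Olfm4, Smoc2, Ascl2) was 28399 to 33368 in untreated libraries and 650 to 1925 with PAM from day 2, and that of 6 Paneth cell markers was 30017 to 41590 and 4856 to 21442. The Paneth cell sum was 4370 to 19040 with PAM and 9196 to 21937 with indirect CAP from day 1, and 18120 to 28614 with indirect CAP from day 2. After direct CAP it was 15123 to 33950 at 30 min and 14517 to 24155 at 24 h. In such bulk samples, fewer cells of a type and less RNA per cell cannot be told apart, and the part of these shifts in the results below was not tested.

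The ER stress response element (ERSE) and its shorter form ERSE-II are the sites through which ATF6, XBP1 and the factor NF-Y act on chaperone genes. They were looked for, on both strands, as the letters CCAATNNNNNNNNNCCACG and ATTGGNCCACG in the 250 bases before and 50 bases after each start site in RefSeq (GRCm38.p6). Of the 34 members, 26 had a promoter in the table. ERSE was present in 9 of the 26 and ERSE-II in another 2, against 0.137% and 0.044% of the 27025 genes with a promoter. The members were chosen by known role and these sites are known from such chaperone genes. A higher share among the members was therefore set by the choice and is not a result of these data. The core of the UPR element, TGACGTGG, was in 0 of the 26 and in 0.714% of all genes. A match is a match of letters in this window and was not tested for binding. A match to ERSE or ERSE-II was found in 11 of the 26 members, and 15 had none. The matches are shown 5′ to 3′ in the direction of the motif, with the fixed letters in capitals. The measured levels of these 11 members can be set beside them.
Hspa5 (ERSE): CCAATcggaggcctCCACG
Hsp90b1 (ERSE): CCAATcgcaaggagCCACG
Hsp90b1 (ERSE, opposite strand): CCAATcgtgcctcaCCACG
Dnajb11 (ERSE-II): ATTGGcCCACG
Dnajc3 (ERSE): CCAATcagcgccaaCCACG
Creld2 (ERSE, opposite strand): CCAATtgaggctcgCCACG
Pdia6 (ERSE): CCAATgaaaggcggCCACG
Calr (ERSE, opposite strand): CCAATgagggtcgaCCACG
Canx (ERSE): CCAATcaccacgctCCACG
Herpud1 (ERSE-II): ATTGGgCCACG
Syvn1 (ERSE): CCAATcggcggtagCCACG
Derl3 (ERSE, opposite strand): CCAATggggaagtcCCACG
Positions count from the start site, whose own base is the first positive position, so that no base is numbered 0. The Hspa5 match ran from -65 to -47 (chr2:34772025-34772043, plus strand) and that of Pdia6 from -98 to -80 (chr12:17266491-17266509, plus strand). In Hsp90b1, one match lay at -212 to -194 on the strand of the gene (chr10:86705638-86705656, minus strand) and the other at -107 to -89 on the opposite strand (chr10:86705533-86705551). The ERSE-II match of Herpud1 lay at -52 to -42 (chr8:94386377-94386387, plus strand), and that of Dnajb11 at 8 to 18, within the transcribed part (chr16:22857852-22857862, plus strand). The whole windows of Hspa5 and Herpud1 are shown because, with a match each, Hspa5 was called in no group and Herpud1 rose, whereas Pdia6 fell.
Hspa5 (chr2:34771840-34772139, plus strand): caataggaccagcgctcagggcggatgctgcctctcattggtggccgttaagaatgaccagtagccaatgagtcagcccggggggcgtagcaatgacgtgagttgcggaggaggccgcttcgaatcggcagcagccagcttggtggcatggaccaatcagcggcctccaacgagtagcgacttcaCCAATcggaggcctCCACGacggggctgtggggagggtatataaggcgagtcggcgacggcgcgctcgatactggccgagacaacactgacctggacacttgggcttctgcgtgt
Herpud1 (chr8:94386179-94386478, plus strand): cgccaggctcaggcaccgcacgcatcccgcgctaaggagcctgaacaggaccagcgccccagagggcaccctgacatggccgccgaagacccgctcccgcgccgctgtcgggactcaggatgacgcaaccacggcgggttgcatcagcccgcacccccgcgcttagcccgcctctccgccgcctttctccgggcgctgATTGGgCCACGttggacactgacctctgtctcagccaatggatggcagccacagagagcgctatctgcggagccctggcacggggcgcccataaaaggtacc
In the untreated organoids, the members together took 0.706% ± 0.025 (SD, n = 4) of the reads. Compared per kilobase of exon, P4hb, the protein disulfide isomerase itself, had by far the highest level at 9721 ± 872 scaled counts per kilobase (SD, n = 4). Calr, the soluble lectin chaperone, followed with 4166 ± 259. Canx (2853 ± 133), Pdia3 (2710 ± 252), Hsp90b1 (2661 ± 166) and Hspa5 (2567 ± 257) lay within each other's spread. The sensors were lower, with 159 ± 13.9 for Ern1 and 142 ± 9.39 for Atf6, and Derl3 was the lowest of the 34. The members' share of the reads was 0.656% ± 0.0036 (SD, n = 3) in the 30 min group of direct CAP, 0.638% ± 0.0134 in the 24 h group, 0.615% ± 0.0143 with indirect CAP from day 1 and 0.595% ± 0.0506 with PAM from day 1. With the day 2 media it was 0.633% ± 0.0537 for indirect CAP and 0.651% ± 0.0886 for PAM, where the 3 lines were far apart and overlapped the untreated libraries.

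**Figure D1:**
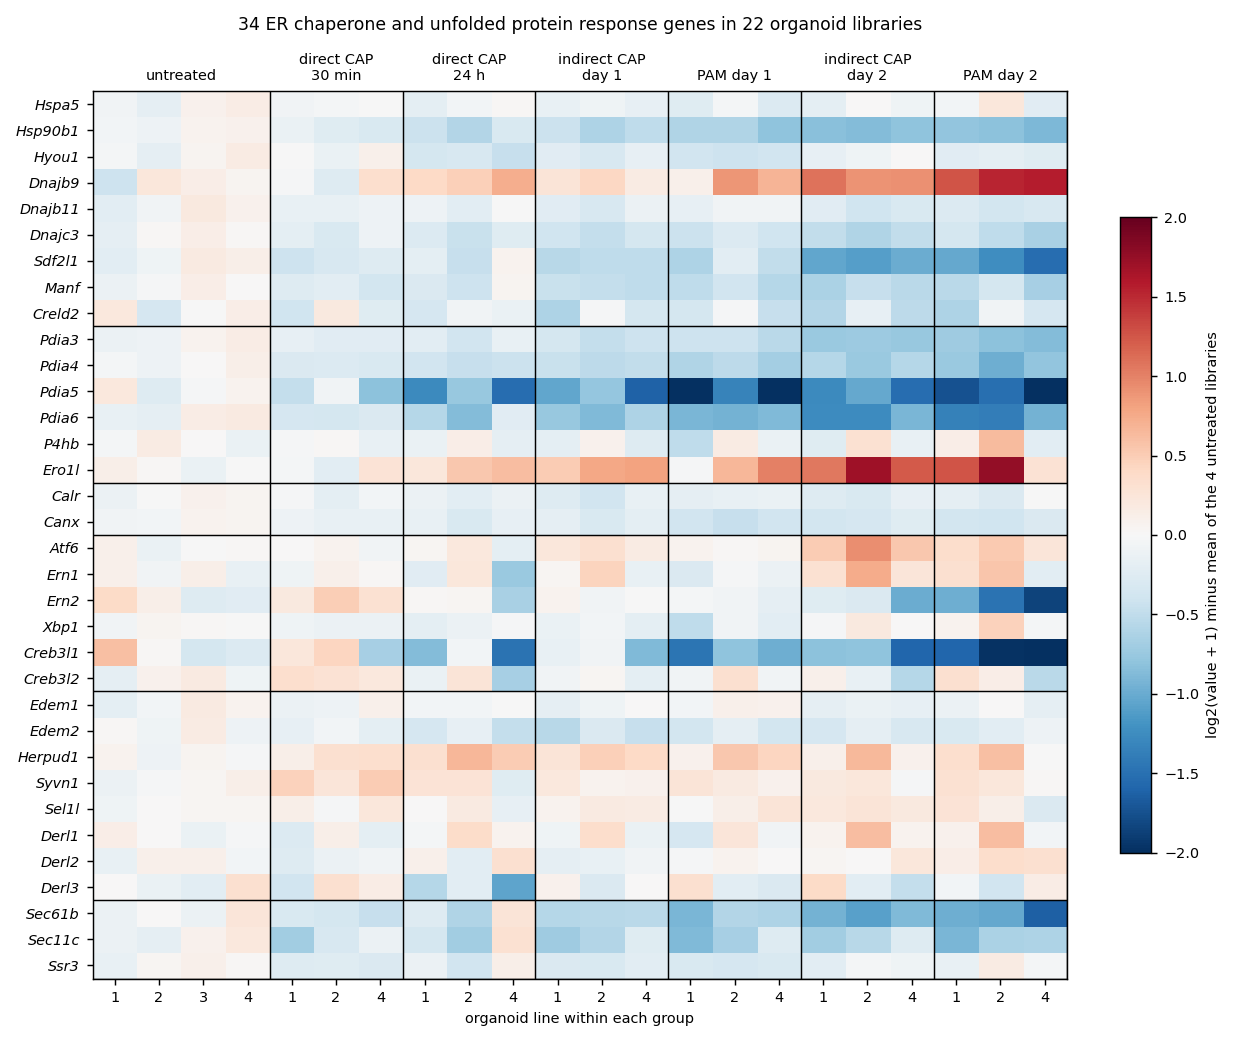
Level of each of the 34 members (rows, in the order of their roles) in each of the 22 libraries (columns, by group and organoid line) as the log2(value + 1) minus the mean of the 4 untreated libraries, in a colour scale that ends at 2 either way. The blue rows of Pdia6 and Sdf2l1 and the red rows of Dnajb9 and Ero1l are on average deepest in the day 2 groups, the row of Pdia5 is deepest with PAM from day 1, and Hspa5 stays pale throughout.

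Values of each group as log2(value + 1) were set against those of the 4 untreated libraries in limma, with a moderated variance trend and p-values adjusted by Benjamini-Hochberg over all genes tested, and a gene was called at an adjusted p under 0.05. The comparisons share the same untreated libraries. Most members that changed fell. With indirect CAP from day 1, 12 of 34 members fell (35.3%) and 2 rose, against 10.4% of all genes lower and 10.2% higher. Under PAM from day 1, 15 fell (44.1%) and 1 rose, against 26.6% and 15.2%. With indirect CAP from day 2, 15 fell and 5 rose, against 23.5% and 20.3%. Under PAM from day 2, 14 fell (41.2%) and 3 rose, against 29.1% and 18.5%. After 24 h of direct CAP, 5 fell and 2 rose, against 10.2% and 7.05%. After 30 min of direct CAP, limma called 0 members and 0.00564% of all genes, and 12 members and 24.9% of all genes had an unadjusted p under 0.05.

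Over the 6 groups, 18 members fell in at least 1 group and never rose, 6 rose in at least 1 group and never fell, and 10 were called in none. The same count over the 6 groups was not made for all genes, so this is a description of the members alone. The median log2 fold change over the 34 members was -0.11 after 30 min of direct CAP, -0.19 after 24 h, -0.22 with both day 1 media and with indirect CAP from day 2, and -0.18 with PAM from day 2. Over all genes the median was 0.017, -0.079, 0.0039, -0.13, -0.0076 and -0.12 in the same order. For the PAM groups, where the median of all genes lay more than 0.1 below 0, median-of-ratios scaling gave 9 members lower and 3 higher from day 1, against 19.5% and 19.3% of all genes, and 12 lower and 6 higher from day 2, against 24.8% and 21.9%. After 24 h of direct CAP it gave 2 lower and 3 higher, close to the 6.97% and 7.98% of all genes. No called fold change of a member changed sign under any scaling. A replicate block for the organoid line also takes untreated line 3 out of the comparison, because line 3 had no treated library. With this block, 4 members in place of 7 were called after 24 h of direct CAP, 3 lower and 1 higher, against 6.16% and 6.61% of all genes. With no block, that count was 3 without untreated line 3 or 4 and 4 without treated line 1. The 14 members called with indirect CAP from day 1 became 9 without treated line 2. Calls over all genes fell too, from 2995 to 1891, 1755 and 1823 without untreated line 3, untreated line 4 and treated line 1. With indirect CAP from day 1 they fell from 3662 to 2170 without treated line 2.

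At the stricter threshold used by the study (an adjusted p below 0.01 with a log2 change of 1 or more in size), 1 member was called after 24 h of direct CAP, 0 with indirect CAP from day 1, 2 with PAM from day 1, 4 with indirect CAP from day 2 and 7 with PAM from day 2. The share of all genes past it was 2.17%, 1.31%, 10.2%, 11.9% and 17.3% in the same order. When direct CAP for 24 h and both day 1 media (9 libraries) were set against untreated, 14 members fell and 3 rose at an adjusted p under 0.05, against 18.7% and 14.8% of all genes, and Pdia5 was the 1 member past the stricter threshold, against 6.34% of all genes.

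**Figure D2:**
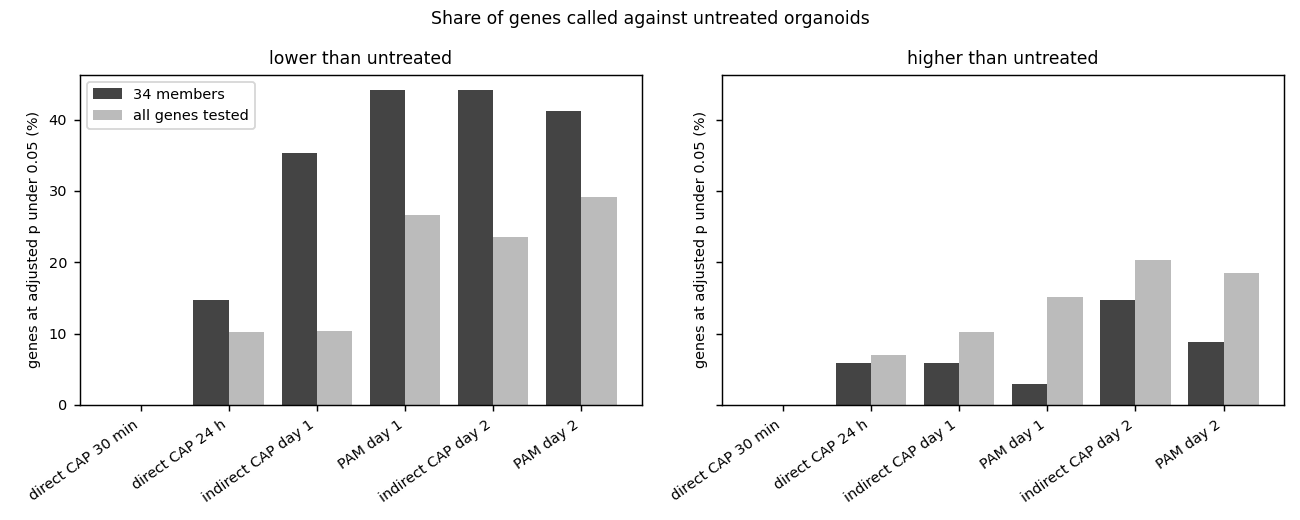
Percent of genes called lower (left) and higher (right) than untreated at an adjusted p under 0.05 in each treated group, for the 34 members (dark bars) and for all genes tested (pale bars). The dark bars reach 44.1% on the left for PAM of day 1 and for indirect CAP of day 2, and stay below the pale bars on the right.

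Among the 9 chaperones and co-chaperones, Hspa5, which encodes the ER Hsp70 BiP and is the usual marker of ER stress (chr2:34771970-34777547, plus strand), was called in none of the comparisons. It read 10351, 9596, 11480 and 12001 in untreated lines 1 to 4. With indirect CAP from day 2 it read 9438, 10868 and 10202 in lines 1, 2 and 4, and with PAM from day 2, 10444, 12604 and 9252. In the other 4 groups it read 8981 to 10936. The groups overlapped. Its log2 fold change lay between -0.18 ± 0.11 (SE) with PAM from day 1 and -0.018 ± 0.13 with PAM from day 2. The 95% interval for PAM from day 2 ran from -0.32 to 0.29, so that a rise of over 0.29 on the log2 scale lay outside it.

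Hsp90b1, which encodes GRP94, the Hsp90 of the ER (chr10:86690209-86705509, minus strand), fell in 5 of the 6 groups. It read 10337, 9993, 11270 and 11322 in the untreated libraries, and 9726, 9018 and 8669 in lines 1, 2 and 4 after 30 min of direct CAP. It read 7976, 7169 and 8713 after 24 h of direct CAP, 7967, 6976 and 7518 with indirect CAP from day 1, and 7031, 7068 and 6158 with PAM from day 1. With the day 2 media it read 6021, 5885 and 6143 for indirect CAP, and 6192, 6075 and 5760 for PAM. Every treated library was below every untreated library in all 6 groups. The log2 fold change was -0.23 ± 0.08 (SE, adjusted p = 0.147) after 30 min and -0.43 ± 0.10 (adjusted p = 0.0221) after 24 h of direct CAP, and -0.83 ± 0.07 (adjusted p = 0.000114) and -0.84 ± 0.09 (adjusted p = 0.000412) with the day 2 media. The call after 24 h of direct CAP was lost with the replicate block (adjusted p = 0.0622) and without untreated line 3 (0.0600), untreated line 4 (0.0641) or treated line 1 (0.0612).

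Sdf2l1, a partner of the co-chaperone ERdj3 in the ER lumen (chr16:17130138-17132383, minus strand), read 1239, 1350, 1616 and 1546 in the untreated libraries. It read 974, 1002 and 1001 with indirect CAP from day 1 and 695, 665 and 716 from day 2. PAM gave 936, 1230 and 1014 from day 1 and 706, 607 and 498 from day 2. The day 2 libraries were all below the untreated libraries and below every day 1 library. From day 1, its log2 fold change was -0.53 ± 0.10 (SE, adjusted p = 0.0135) for indirect CAP and -0.44 ± 0.13 (adjusted p = 0.0243) for PAM, and from day 2 it was -1.05 ± 0.10 (adjusted p = 0.000176) and -1.26 ± 0.15 (adjusted p = 0.000561). The call with PAM from day 1 was lost without untreated line 3 or 4 or treated line 1 or 4, with an adjusted p of 0.0605 to 0.0792. After direct CAP the values were 1077, 1148 and 1199 at 30 min and 1254, 1041 and 1501 at 24 h, the first all below untreated and neither of them called.

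Dnajb9 moved the other way. It encodes ERdj4, a co-chaperone of BiP that also acts in degradation and on IRE1 (chr12:44205559-44210326, minus strand). It read 406, 637, 598 and 564 in the untreated libraries, 650, 722 and 606 with indirect CAP from day 1 and 1151, 1017 and 1022 from day 2. PAM gave 585, 1000 and 868 from day 1 and 1300, 1560 and 1622 from day 2. Every day 2 library was above every untreated library. Its log2 fold change was 0.96 ± 0.15 (SE, adjusted p = 0.00158) with indirect CAP and 1.45 ± 0.17 (adjusted p = 0.000542) with PAM from day 2. After 24 h of direct CAP the values were 717, 754 and 900, all above untreated, with a log2 fold change of 0.53 ± 0.17 that missed the threshold (adjusted p = 0.0587). With PAM from day 1 the change of 0.55 ± 0.21 (adjusted p = 0.0668) was called with the replicate block (adjusted p = 0.00777). After 30 min of direct CAP the values were 532, 452 and 687, overlapping untreated.

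Of the other chaperones, Dnajc3, which encodes the co-chaperone p58IPK, and Manf, a secreted factor that binds BiP, fell in the same 4 groups, all but direct CAP. Dnajc3 had log2 fold changes of -0.37 to -0.53 and Manf of -0.48 to -0.54 in these groups. After direct CAP, Dnajc3 at 24 h (2242, 2006 and 2289) and Manf at 30 min (1641, 1697 and 1516) were below all untreated libraries but were not called. Dnajc3 at 30 min and Manf at 24 h overlapped untreated. Dnajc3 was no longer called with indirect CAP from day 1 without line 2 (adjusted p = 0.0511). Hyou1, the large Hsp70 that exchanges nucleotide on BiP, fell with PAM from day 1 (-0.40 ± 0.09, adjusted p = 0.00984) and after 24 h of direct CAP (-0.38 ± 0.10, adjusted p = 0.0373), the latter not with the replicate block (adjusted p = 0.127) or without untreated line 1, 3 or 4 or treated line 1 or 4 (0.0739 to 0.0923). Dnajb11, which encodes ERdj3, fell with both day 2 media by 0.31 and 0.32 on the log2 scale, close to the threshold and in neither case with the block (adjusted p = 0.107 and 0.133) or without any library other than untreated line 1. Creld2, a further resident of the ER lumen, was called in none, with log2 fold changes of -0.18 to -0.42 in the groups other than 30 min.

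Of the 6 genes of oxidative folding, Pdia5, a protein disulfide isomerase (chr16:35397312-35490873, minus strand), fell in 5 of the 6 groups. It read 840, 604, 710 and 763 in the untreated libraries, and 520, 693 and 411 after 30 min of direct CAP. It read 298, 429 and 251 after 24 h of direct CAP, 352, 422 and 236 with indirect CAP from day 1, and 175, 287 and 135 with PAM from day 1. With the day 2 media it read 298, 354 and 250 for indirect CAP, and 215, 255 and 152 for PAM. Apart from the 30 min group, which overlapped untreated, all treated libraries lay below all untreated ones, and line 2 was the highest and line 4 the lowest in each of the 6 groups. Pdia5 had a log2 fold change of -1.19 ± 0.19 (SE, adjusted p = 0.00706) after 24 h of direct CAP, -1.14 ± 0.20 (adjusted p = 0.0101) with indirect CAP from day 1 and -1.93 ± 0.24 (adjusted p = 0.000605) with PAM from day 1. From day 2 it was -1.28 ± 0.15 (adjusted p = 0.000375) and -1.83 ± 0.20 (adjusted p = 0.000419).

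Pdia6, a second such isomerase (chr12:17266545-17284770, plus strand), fell in the same 5 groups. It read 4916, 4841, 6062 and 6148 in the untreated libraries, 3684, 2999 and 4683 after 24 h of direct CAP, and 3217, 2964 and 3569 with indirect CAP from day 1. It read 2907, 2836 and 2944 with PAM from day 1, 2290, 2291 and 2904 with indirect CAP from day 2, and 2132, 2089 and 2844 with PAM from day 2. The 30 min libraries, at 4343, 4300 and 4451, were also below the untreated ones but were not called. Its log2 fold change ran from -0.55 ± 0.16 (SE, adjusted p = 0.0487) after 24 h of direct CAP, a call that was lost without any library other than treated line 4, to -1.14 ± 0.13 (adjusted p = 0.000294) and -1.23 ± 0.15 (adjusted p = 0.000582) with the day 2 media.

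Pdia4, which encodes ERp72, fell in these 5 groups too, from -0.43 ± 0.08 (SE) after 24 h of direct CAP to -0.84 ± 0.09 with PAM from day 2. Pdia3, the isomerase ERp57 that works with the lectin chaperones, fell in the 4 groups other than direct CAP, from -0.41 ± 0.09 with indirect CAP from day 1, where the call was lost without line 2 (adjusted p = 0.0541), to -0.80 ± 0.10 with PAM from day 2. After direct CAP, Pdia3 read 7592, 7273 and 7232 at 30 min and 7347, 6507 and 7645 at 24 h. These libraries were also all below the untreated ones, the lowest of which read 7809, but were not called. P4hb was called in none. It read 25251 to 31207 in the untreated libraries, and with PAM from day 2 its value was 43157 in line 2, 30534 in line 1 and 23984 in line 4. The 6 genes of oxidative folding together summed to 38497 to 64808 in these 3 libraries.

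Ero1l, which encodes the oxidase ERO1α that passes electrons from disulfide isomerases to oxygen (chr14:45283087-45318771, minus strand), rose, in contrast to Pdia3, Pdia4, Pdia5 and Pdia6. It read 4013, 3770, 3370 and 3664 in the untreated libraries, and 4334, 5361 and 5649 after 24 h of direct CAP. With indirect CAP it read 5231, 6292 and 6428 from day 1 and 7705, 11947 and 8647 from day 2. PAM gave 3636, 5844 and 7405 from day 1 and 8874, 12460 and 4513 from day 2. Every library of these groups was above every untreated library except line 1 with PAM from day 1. Ero1l had a log2 fold change of 0.46 ± 0.11 (SE, adjusted p = 0.0269) after 24 h of direct CAP, 0.69 ± 0.10 (adjusted p = 0.00611) with indirect CAP from day 1, and, with the day 2 media, 1.33 ± 0.14 (adjusted p = 0.000263) for indirect CAP and 1.10 ± 0.30 (adjusted p = 0.0162) for PAM. The call with PAM from day 2 was lost without treated line 1 (adjusted p = 0.0527). The call after 24 h of direct CAP was lost with the block (adjusted p = 0.0903) and without untreated line 2, 3 or 4 or treated line 2 or 4, with an adjusted p of 0.0574 to 0.0688.

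The lectin chaperones moved little. Canx, the membrane-bound lectin chaperone calnexin, fell with PAM from day 1 (-0.40 ± 0.08, SE) and with both day 2 media, indirect CAP (-0.32 ± 0.07) and PAM (-0.35 ± 0.09, not called with the block at an adjusted p of 0.0593). In the other groups Canx was not called, although its libraries there were also all below the untreated ones. Calr fell with indirect CAP from day 2 by 0.24 on the log2 scale, near the threshold (adjusted p = 0.0418), and not with the block (0.105) or without any library other than untreated line 1.

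**Figure D3:**
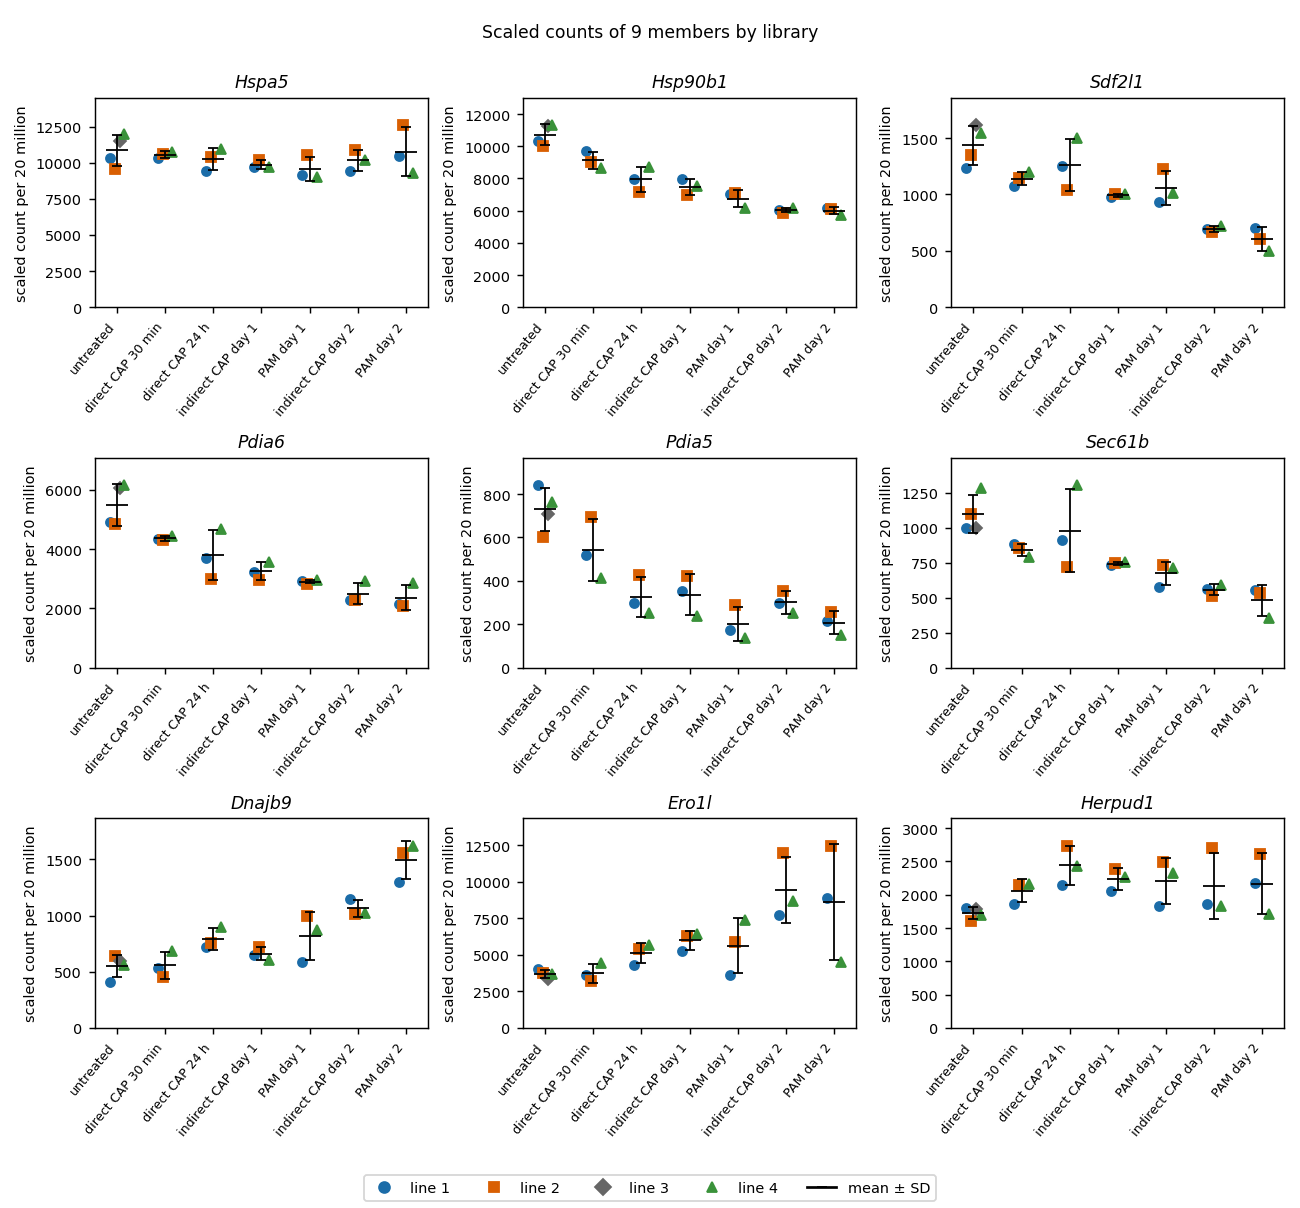
Scaled counts per 20 M (vertical axes, starting at 0) of 9 members in each of the 22 libraries, by group, with symbols for the 4 organoid lines and black bars for the mean ± SD. Hsp90b1, Sdf2l1, Pdia6 and Sec61b have their lowest means and Dnajb9 and Ero1l their highest with the day 2 media, Pdia5 has its lowest mean with PAM from day 1, and Hspa5 stays between 8981 and 12604.

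The sensors and transcription factors split by gene. Atf6, the membrane-bound factor that is cut under ER stress (chr1:170704674-170867771, minus strand), read 1409, 1198, 1305 and 1323 in the untreated libraries, 1868, 2493 and 1901 with indirect CAP from day 2 and 1667, 1887 and 1548 with PAM from day 2. These 6 libraries lay above all untreated ones. Its log2 fold change was 0.66 ± 0.11 (SE, adjusted p = 0.00232) for indirect CAP and 0.38 ± 0.10 (adjusted p = 0.0175) for PAM, and the second was lost without treated line 2 (adjusted p = 0.0555) and with the block (0.0693). With indirect CAP from day 1 it read 1534, 1635 and 1461, also above all untreated libraries, but was not called (adjusted p = 0.0679). In the other 3 groups it read 1145 to 1513, overlapped untreated and was not called. Ern1, which encodes the widely expressed sensor IRE1α (chr11:106394650-106487852, minus strand), read 1381, 1229, 1405 and 1173 in the untreated libraries and 1605, 2170 and 1536 with indirect CAP from day 2. Its log2 fold change there was 0.44 ± 0.13 (SE, adjusted p = 0.0267), and it was not called without untreated line 2 or 4 or treated line 2 (adjusted p = 0.0611 to 0.0656). With PAM from day 2 it read 1607, 1893 and 1118, and 773 to 1753 in the other 4 groups, and was not called.

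Ern2, which encodes IRE1β, the form found in mucus-producing epithelium (chr7:122169893-122186207, minus strand), went down. It read 989, 823, 637 and 648 in the untreated libraries, 643, 624 and 383 with indirect CAP from day 2 and 388, 272 and 211 with PAM from day 2. The PAM libraries were all below untreated, at a log2 fold change of -1.43 ± 0.24 (SE, adjusted p = 0.00203). With indirect CAP from day 2 the change of -0.51 ± 0.22 missed the threshold (adjusted p = 0.0938) and was called with the block (0.0103). In the other 4 groups Ern2 overlapped untreated, with values of 487 to 1069.

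Creb3l1, which encodes OASIS, a relative of ATF6 (chr2:91982328-92024502, minus strand), read 598, 402, 309 and 324 in the untreated libraries. It read 143, 224 and 199 with PAM from day 1, 223, 226 and 131 with indirect CAP from day 2 and 131, 99 and 47 with PAM from day 2. In these 3 groups every library was below every untreated one. The log2 fold change was -1.08 ± 0.25 (SE, adjusted p = 0.00949), -1.07 ± 0.27 (adjusted p = 0.0139) and -2.20 ± 0.37 (adjusted p = 0.00217), the last being the greatest fall of any member. In the other 3 groups it read 141 to 533, overlapped untreated and was not called. Creb3l2, the related factor BBF2H7, was called in none.

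The fall of Ern2 and Creb3l1 with PAM from day 2 coincided with a lower level of goblet cell markers. The summed value of 7 such markers (Muc2, Tff3, Agr2, Fcgbp, Clca1, Spink4, Zg16) was 81860 to 140927 in the untreated libraries, 62647 to 96187 with indirect CAP from day 2 and 19170 to 50007 with PAM from day 2, and none of the 7 was at 0. With PAM from day 1, where Creb3l1 had also fallen and Ern2 had not, this sum was 86823 to 197222. The part of the goblet cell markers in these results was not tested.

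Xbp1, the target of IRE1 (chr11:5520659-5525893, plus strand), was called in none. It read 2848, 3115, 3065 and 2999 in the untreated libraries, 2971, 3451 and 3021 with indirect CAP from day 2 and 3155, 4117 and 2913 with PAM from day 2. In the other 4 groups it read 2110 to 2945, with the 30 min libraries of direct CAP (2840, 2776 and 2773) just below all untreated ones. The day 2 groups overlapped untreated, and the 95% interval of the log2 fold change with PAM from day 2 ran from -0.13 to 0.45. A value per gene does not show whether the Xbp1 mRNA was spliced.

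**Figure D4:**
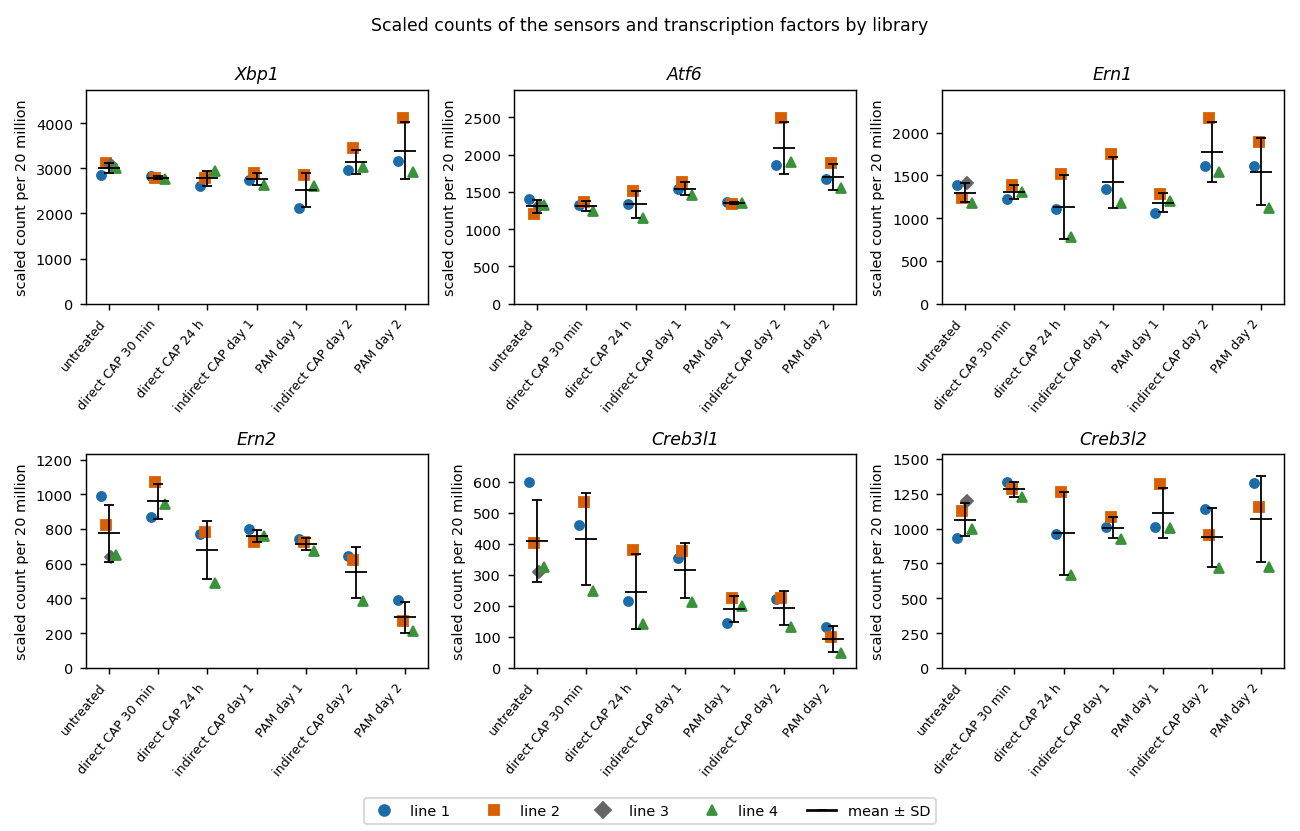
Scaled counts per 20 M (vertical axes, starting at 0) of the 6 sensors and transcription factors in the 22 libraries, by group, with symbols for the organoid lines and black bars for the mean ± SD. Atf6 stands above untreated with both day 2 media and with indirect CAP from day 1, Ern2 and Creb3l1 reach their lowest values (211 and 47) with PAM from day 2, and Xbp1 ranges from 2110 to 4117.

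Of the 8 genes of ER-associated degradation, which returns misfolded proteins to the cytosol for destruction, few changed. Herpud1, an organizer of the degradation complex (chr8:94386438-94395377, plus strand), was the member that rose after 24 h of direct CAP beside Ero1l. It read 1803, 1602, 1785 and 1699 in the untreated libraries, 1865, 2149 and 2167 after 30 min and 2150, 2737 and 2439 after 24 h of direct CAP. With indirect CAP it read 2054, 2385 and 2267 from day 1 and 1854, 2702 and 1832 from day 2. With PAM it read 1825, 2492 and 2320 from day 1 and 2176, 2616 and 1711 from day 2. The libraries lay above all untreated ones in every group except for line 4 with PAM from day 2. Herpud1 had a log2 fold change of 0.50 ± 0.10 (SE, adjusted p = 0.0139) after 24 h of direct CAP and 0.37 ± 0.08 (adjusted p = 0.0179) with indirect CAP from day 1, where leaving out treated line 2 ended the call (adjusted p = 0.0540). With PAM from day 1 it was 0.35 ± 0.11 (adjusted p = 0.0370), a call lost with the block (0.0847) and without any library other than treated line 1. With the day 2 media it was 0.28 ± 0.14 and 0.31 ± 0.14, not called (adjusted p = 0.127 and 0.102).

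Edem2, a lectin-like factor that marks glycoproteins for degradation, fell with both day 1 media (-0.44 ± 0.10, SE, for indirect CAP and -0.31 ± 0.10 for PAM) and with indirect CAP from day 2 (-0.28 ± 0.09), the last 2 not with the block (adjusted p = 0.0854 and 0.0916). Its first call was lost without treated line 1 or 4 (adjusted p = 0.0594 and 0.0565), and the other 2 without untreated line 1 or 3 or treated line 1 or 4 (0.0583 to 0.108). Sel1l, the adaptor of the ubiquitin ligase HRD1, rose with indirect CAP from day 2 by 0.22 ± 0.06 (adjusted p = 0.0211), but not with the block (0.0579) or without treated line 2 (0.0637). Syvn1, which encodes HRD1 itself, Edem1 and the channel-like derlins Derl1, Derl2 and Derl3 were called in none. Derl3 read only 9 to 26 in all libraries, where counting error is large.

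Sec61b, a subunit of the channel through which proteins enter the ER (chr4:47474658-47483242, plus strand), fell in the 4 groups other than direct CAP. It read 1000, 1100, 1000 and 1286 in the untreated libraries, 731, 745 and 753 with indirect CAP from day 1 and 577, 730 and 710 with PAM from day 1. With the day 2 media it read 563, 512 and 592 for indirect CAP, and 554, 535 and 352 for PAM. All 12 of these libraries were below all untreated ones. After 24 h of direct CAP, by contrast, the 3 lines read 909, 719 and 1302 and overlapped them. After 30 min of direct CAP they read 880, 852 and 791, all below untreated, but were not called. The log2 fold change was -0.55 ± 0.10 (SE, adjusted p = 0.0119) and -0.70 ± 0.13 (adjusted p = 0.00285) from day 1, and -0.97 ± 0.11 (adjusted p = 0.000306) and -1.21 ± 0.18 (adjusted p = 0.00131) from day 2. Sec11c, a catalytic subunit of the signal peptidase, fell in the same 4 groups, by 0.50 to 0.72 on the log2 scale, and Ssr3, of the translocon-associated complex, fell with the day 1 media, by 0.27 for indirect CAP and 0.31 for PAM. The indirect CAP calls from day 1 were lost for Sec11c without any library other than treated line 4, and for Ssr3 with the block (adjusted p = 0.0913) and without any library other than untreated line 1. Sec11c was also not called with indirect CAP from day 2 without treated line 1 (adjusted p = 0.0625).

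**Figure D5:**
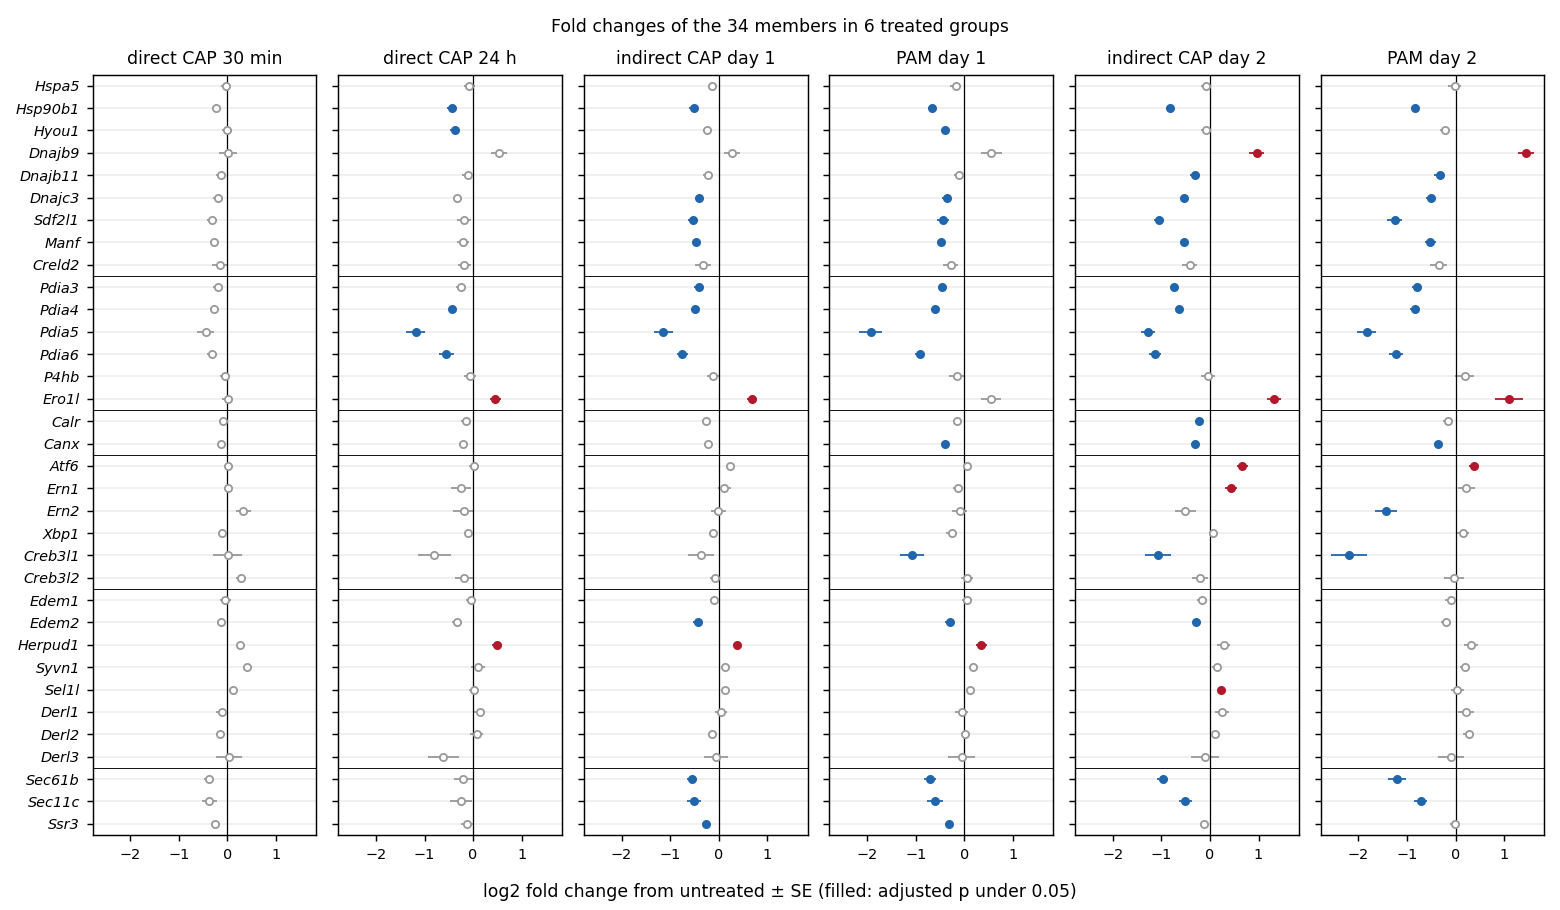
Log2 fold change from untreated ± SE (horizontal axes) of each of the 34 members in the 6 treated groups, with filled blue points for members that fell, filled red points for members that rose and open grey points for those not called at an adjusted p under 0.05. The 30 min panel has open points throughout, and Pdia5 at -1.93 and Creb3l1 at -2.20 are the leftmost filled points with PAM from day 1 and day 2.

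Of the 11 members with an ERSE or ERSE-II match, 6 fell in at least 1 group (Hsp90b1, Dnajb11, Dnajc3, Pdia6, Calr, Canx), 1 rose (Herpud1) and 4 were called in none (Hspa5, Creld2, Syvn1, Derl3). Of the 15 members with a promoter and no match, 7 fell, 3 rose and 5 were called in none. This is a count of members, the same count over all genes was not made, and no test was made.

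Comparisons among treated groups set groups that differed in duration, start day or route of the treatment against each other. In the paper, the day 1 media were freshly made and were replaced with fresh medium at day 2. The day 2 media had been made at day 1 and stayed on the organoids until day 3. Start day, age of the medium and time in fresh medium before the end therefore cannot be told apart. Between indirect CAP from day 2 and from day 1, 3.37% of all genes were called, and of the members Dnajb9 was higher by 0.69 ± 0.10 (SE, adjusted p = 0.0271) and Sdf2l1 lower, at -0.52 ± 0.08 (adjusted p = 0.0281), from day 2. Both calls were lost, with an adjusted p of at most 0.133, without any 1 library other than line 4 of the day 1 group. With the replicate block, 11 members were called here, 4 higher (Dnajb9, Ero1l, Atf6, Ern1) and 7 lower (Hsp90b1, Sdf2l1, Pdia3, Pdia6, Ern2, Creb3l1, Sec61b), and so were 23.6% of all genes. Between PAM from day 2 and from day 1, limma called 0 members and 0.0% of all genes, with 9 members and 26.8% of all genes at an unadjusted p under 0.05. The difference in Dnajb9 was 0.90 with an unadjusted 95% interval from 0.39 to 1.40, and that in Sdf2l1 was -0.82, from -1.23 to -0.41. With the block, Dnajb9, Sdf2l1 and Ern2 were called here (adjusted p = 0.0282, 0.0412 and 0.0253), against 10.6% of all genes.

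Between direct CAP for 24 h and for 30 min, limma called 0 members and 0.0% of all genes, with 5 members and 21.4% of all genes at an unadjusted p under 0.05. With the block, 8.14% of all genes and 3 members were called, Pdia5 (-0.73 ± 0.13, SE), Creb3l1 (-0.80 ± 0.16) and Dnajb9 (0.52 ± 0.13). Between PAM from day 1 and direct CAP for 24 h, 0.258% of all genes and 0 members were called, with 1 member and 10.4% of all genes at an unadjusted p under 0.05. With the block, Pdia5 was called (-0.74 ± 0.14, adjusted p = 0.0245), against 2.9% of all genes. Between PAM and indirect CAP from day 2, limma called 0 members and 0.0% of all genes, with 3 members and 9.48% of all genes at an unadjusted p under 0.05. With the block, 0 members and 0.0% of all genes were called there as well. The 95% interval of the difference ran from -0.21 to 0.21 for Hsp90b1, from -1.61 to -0.24 for Ern2 and from -2.12 to -0.15 for Creb3l1. These intervals are not adjusted for the number of genes tested, and no difference between the 2 groups was called.

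The organoid lines differed among themselves. With PAM from day 1, line 2 had the highest value of the 3 lines for 21 of the 34 members, and with indirect CAP from day 2 for 18. It was highest for 15 with indirect CAP from day 1 and for 15 with PAM from day 2. After direct CAP, line 4 was highest most often, for 14 members at 30 min and 17 at 24 h. The same count over all genes was not made. The median ratio of the highest to the lowest line was 1.30 with PAM from day 2 and 1.13 after 30 min of direct CAP. Each line is 1 mouse, so that p-values without the block rest on the spread between lines. Such fits do not use the fact that the groups compared share lines. With the block, p-values rest on the spread that remains after differences between lines are taken out.

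Of the wider pathway, 88 further genes were listed by role, of which 85 were tested. The PERK branch was taken as Eif2ak3, Atf4, Ddit3, Trib3, Ppp1r15a, Chac1, Asns, Atf3 and Sesn2, and its targets also respond to other eIF2α kinases. Of these 9 genes, 7 rose after 24 h of direct CAP and with indirect CAP from day 1, 6 with PAM from day 1 and 9 with each of the day 2 media, and 0 fell in any group. The median log2 fold change was 1.12, 1.08, 0.93, 2.17 and 2.32 in the same order. The share of all genes that rose was 7.05%, 10.2%, 15.2%, 20.3% and 18.5% in that order.

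Trib3, a pseudokinase induced by ATF4 and CHOP, had the greatest rise of the pathway with indirect CAP from day 2. It read 278, 225, 190 and 235 in the untreated libraries and 2041, 3003 and 2265 there, a log2 fold change of 3.38 ± 0.16 (SE, adjusted p = 3.01e-05). Atf3, a stress-induced transcription factor, rose by 3.67 ± 0.33 (adjusted p = 0.000338) with PAM from day 2, from 83 to 106 in the untreated libraries to 687, 2126 and 1248. Chac1, which breaks down glutathione, rose by 2.11 ± 0.23 (adjusted p = 0.00265) after 24 h of direct CAP, 2.25 ± 0.24 (adjusted p = 0.00342) with indirect CAP from day 1 and 1.80 ± 0.20 (adjusted p = 0.000377) with PAM from day 1. The PERK gene Eif2ak3 and Atf4 itself were called with the day 2 media alone of the 6 groups.

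The further genes of the secretory machinery fell more often than they rose. Of the 28 genes of translocation and glycosylation, 13 fell and 1 rose with indirect CAP from day 1, 18 and 1 with PAM from day 1, 17 and 2 with indirect CAP from day 2, and 15 and 2 with PAM from day 2. Of all genes, 10.4% fell and 10.2% rose with indirect CAP from day 1, and 26.6% and 15.2% with PAM from day 1. For the day 2 media, these shares were 23.5% and 20.3% with indirect CAP, and 29.1% and 18.5% with PAM. Spcs2, another subunit of the signal peptidase, fell by 1.09 on the log2 scale with PAM from day 1 (SE 0.11, adjusted p = 0.000236). Of 24 further folding factors, 11 fell and 3 rose with PAM from day 2, where Txndc5, a disulfide isomerase, had a log2 fold change of -1.63 ± 0.17 (adjusted p = 0.000417), and with indirect CAP from day 2, where 9 fell and 3 rose, Tmx4, a membrane-bound thioredoxin, had one of -1.06 ± 0.17 (adjusted p = 0.00146). Creb3l4, a further relative of Creb3l1, fell in 5 groups, from -1.01 ± 0.26 (adjusted p = 0.0339) after 24 h of direct CAP to -2.89 ± 0.31 (adjusted p = 0.000431) with PAM from day 2. Of 17 further degradation factors, at most 2 rose and at most 1 fell in any group, against up to 20.3% of all genes higher and 29.1% lower.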

How the data were processed

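RNA-seq was analysed in 22 libraries of mouse duodenal organoids. The deposited values are a score per gene and library that the authors call CP20M. Per the labels and the methods, reads were trimmed (Trimmomatic 0.36), aligned to GRCm38 (STAR 2.5.3a) and counted (HTSeq 0.9.1) by the authors. The values are whole numbers that sum to 20007540 to 20016513 per library and act as counts scaled by 1 factor per library, not divided by gene length. Raw counts were not used here, so no test for counts was run.

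Fold changes were fitted with limma 3.58.1 (R 4.3.3) on log2(value + 1), over genes with 10 or more in at least 3 libraries of the fit, in 12 comparisons. Gene positions are from GENCODE vM21 on GRCm38, which matched 99.56% of the IDs. Figures used matplotlib in Python. The alternatives were 2 other scalings, another pseudocount, no filter, all groups in one fit, a block for the line, the study's threshold and leaving out each library. The procedure was tested on simulated data.

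Samples with the same line number come from the same mouse. After removing group means, treated libraries of the same line correlated at 0.219 to 0.806, and treated with untreated libraries of the same line at -0.049 to 0.649, so the pairing of some untreated libraries is in doubt. In 24 pairs of libraries of the same group, none differed by less than sampling noise.

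The members and gene lists were chosen with earlier results of these data known. The genes described in depth are those past the study's threshold in any group, plus 8 central genes of the response. Of the wider pathway, at most the 2 greatest rises and 2 greatest falls per group are named, with Eif2ak3 and Atf4 named after their values were seen. Of the 88 pathway genes, 2 were not found under the listed symbol and 1 was too low to test. At low values, near the filter limit of 10, counting error is large.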

Additional observations from a re-analysis of the deposited data

Results flagged for a closer look

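Among the treated groups compared directly, Dnajb9 and Sdf2l1 differed between indirect CAP started at day 2 and at day 1, by limma's test over all genes. Dnajb9 was higher from day 2, by 0.69 on the log2 scale (adjusted p = 0.0271, with all 3 day 2 libraries above all 3 day 1 libraries). Sdf2l1 was lower from day 2, at -0.52 (adjusted p = 0.0281, with all 3 libraries below). By Dixon's test at the 95% level, 0 untreated libraries stood apart from the other 3 for any member.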

How the results depend on the processing

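None of the 93 calls of a member in a comparison changed sign under any of the alternatives: 87 of them held under quantile normalization, 78 under median-of-ratios scaling, 92 with a pseudocount of 10, 82 with no filter, 83 with all 7 groups in one fit and 77 with the replicate block. At the study's threshold, the number of members called was 1 after 24 h of direct CAP, 0 and 4 with indirect CAP from day 1 and day 2, 2 and 7 with PAM from day 1 and day 2, 1 in the 3 groups exposed from day 1 together, and 0 between indirect CAP from day 2 and day 1.

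With the replicate block, 4 members were called after 24 h of direct CAP, 3 between direct CAP for 24 h and 30 min, 11 between indirect CAP from day 2 and day 1, 3 between PAM from day 2 and day 1, and 1 between PAM from day 1 and direct CAP for 24 h. The block moved no other count of members by over 1.5 times. With all 7 groups in one fit, 1 member was called between direct CAP for 24 h and 30 min (4.47% of all genes) and 8 between PAM from day 2 and day 1 (21.9%), where quantile normalization and median-of-ratios scaling gave 1 each (1.9% and 1.22%).

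Leaving out 1 library at a time gave 3 to 7 members after 24 h of direct CAP, 9 to 13 with indirect CAP from day 1, 0 to 2 between indirect CAP from day 2 and day 1, and 0 to 2 between PAM from day 2 and day 1, which reached 2 without PAM day 2 line 1. Calls over all genes became fewer as well. They were 1713 to 2905 in place of 2995 after 24 h of direct CAP, and 1529 to 3175 in place of 3662 with indirect CAP from day 1. Of the 93 calls, 64 held in every such fit. The cause of these changes was not tested beyond the smaller number of samples in such fits. With 3 lines a group, the smallest change called against untreated in a single group was that of Sel1l, 0.22 on the log2 scale.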
